A study of Mus musculus with 12 samples.

Results

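Loci that were close to silent in both control populations of sorted newborn mouse kidney cells numbered 238 of the 25677 loci on chromosomes 1 to 19 (26699 on all chromosomes). A locus here is the sum of all transcripts that overlap on 1 strand, and its level is given in CPM, the library's fragments scaled to a fixed library total. The members were chosen by measured levels: the 238 had a mean under 0.2 CPM in the control low libraries and in the control high libraries, and at least 20 fragments over all 12 libraries. These values chose the loci, so their fragments had to lie mostly in the mutant libraries, and the difference between mutant and control is described below without a test. With control and mutant exchanged, the same rule picked 130 loci.

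RNA was sequenced from cells sorted by flow cytometry at postnatal day 0 (P0), labelled as fetal kidney cells with an R26R-tdTomato reporter, a red fluorescent protein gene placed at the Rosa26 locus. All groups share the stage, the reporter and the isolation of Six2-expressing cells, Six2 being the transcription factor that marks nephron progenitors. The 4 groups were control low (n = 4), control high (n = 2), mutant low (n = 4) and mutant high (n = 2), named from titles that give low or high expression without saying of what. The mutant allele and the driver of any Cre are not named in the sample labels, and Eed, a core subunit of Polycomb repressive complex 2, appears only in the title of the series. Separate animals are not stated for the libraries, and a p-value therefore reflects the scatter of these preparations, which could be technical.

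Polycomb repressive complex 2 places methyl groups on the tail of histone H3, and Eed holds the complex on chromatin that already carries the mark. In many tissues the mark lies over CG-rich promoters of developmental regulators that belong to other organs or body regions, such as the posterior Hox genes, and these genes are silent where it is present. Nephron progenitors renew and then turn into the epithelium of the nephron, so both states normally keep the regulators of gut, lung, nerve and skin switched off.

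Library totals ran from 4549011 to 12365078 fragments, and 1 fragment therefore weighed more in the shallow control high libraries than elsewhere. Eed stood at 15.2, 14.2, 16.7 and 13.2 CPM in the control low libraries, at 8.45, 12.3, 4.98 and 9.9 CPM in mutant low, 6.72 and 7.03 CPM in control high, and 5.26 and 7.58 CPM in mutant high. All 4 mutant low values lay below the control low values, but the difference did not pass the test (log2 difference -0.74 ± 0.26 SE, edgeR adjusted p = 0.107). Six2 ran from 1466 to 2078 CPM in control low libraries and from 709 to 960 CPM in those of mutant low, against 13 to 48.8 CPM in control high and 108 to 118 CPM in mutant high. Marker sums differed between low and high libraries and, without overlap, also between the genotypes within each population. For the 7 nephron progenitor markers, low libraries gave sums of 2652 to 3584 CPM (control) and 1332 to 1728 CPM (mutant). Their sums in high libraries were 55.6 to 124 CPM (control) and 284 to 312 CPM (mutant). For 5 tubule markers, high libraries gave sums of 4938 to 5235 CPM (control) and 1336 to 1473 CPM (mutant). Their sums in low libraries were 189 to 752 CPM (control) and 10.8 to 69.5 CPM (mutant). The label of Six2-expressing cells thus held for the low libraries more than for the high ones. In bulk RNA, fewer cells with a transcript and less transcript per cell cannot be told apart.

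The 250 bases before the start site are printed for 4 regulators that were on in both mutant populations (Hoxd13, Hoxa13, Barx1 and Nkx2-1). They are also printed for 2 epithelial genes that were on in mutant high cells (Apoa4 and Krt14). These 6 are examples picked by hand and do not stand for the members as a whole. The sequences are those of RefSeq on GRCm38.p6, read 5′ to 3′ on the gene's strand, and capitals mark CG dinucleotides, the 2-letter motif CG being its own reverse complement.
Hoxd13 (chr2:74667975-74668224, + strand): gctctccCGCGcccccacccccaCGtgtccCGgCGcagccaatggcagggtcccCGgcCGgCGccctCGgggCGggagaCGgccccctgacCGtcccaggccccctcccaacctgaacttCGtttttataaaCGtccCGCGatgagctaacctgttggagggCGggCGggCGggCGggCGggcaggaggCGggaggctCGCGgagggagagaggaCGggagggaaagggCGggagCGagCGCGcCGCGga
Hoxa13 (chr6:52260881-52261130, - strand): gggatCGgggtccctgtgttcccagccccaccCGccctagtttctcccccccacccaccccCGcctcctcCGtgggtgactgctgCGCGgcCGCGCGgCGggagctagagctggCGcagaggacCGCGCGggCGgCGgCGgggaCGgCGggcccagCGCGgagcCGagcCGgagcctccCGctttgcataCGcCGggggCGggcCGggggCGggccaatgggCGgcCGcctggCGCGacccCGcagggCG
Barx1 (chr13:48662786-48663035, + strand): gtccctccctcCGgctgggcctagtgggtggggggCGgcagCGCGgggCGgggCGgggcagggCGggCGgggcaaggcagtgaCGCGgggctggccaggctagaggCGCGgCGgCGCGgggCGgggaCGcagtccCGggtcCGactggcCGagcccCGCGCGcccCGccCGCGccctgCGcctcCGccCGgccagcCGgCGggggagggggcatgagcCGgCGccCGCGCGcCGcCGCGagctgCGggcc
Nkx2-1 (chr12:56536909-56537158, - strand): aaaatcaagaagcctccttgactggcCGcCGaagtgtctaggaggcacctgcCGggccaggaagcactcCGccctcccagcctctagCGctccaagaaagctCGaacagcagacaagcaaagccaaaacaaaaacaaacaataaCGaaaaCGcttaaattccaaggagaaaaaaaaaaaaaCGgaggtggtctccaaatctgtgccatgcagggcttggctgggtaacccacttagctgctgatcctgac
Apoa4 (chr9:46240594-46240843, + strand): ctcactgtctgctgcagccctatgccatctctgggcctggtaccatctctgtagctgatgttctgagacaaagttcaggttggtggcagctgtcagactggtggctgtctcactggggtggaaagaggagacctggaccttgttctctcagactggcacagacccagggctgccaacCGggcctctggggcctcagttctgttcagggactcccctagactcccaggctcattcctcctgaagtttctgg
Krt14 (chr11:100206031-100206280, - strand): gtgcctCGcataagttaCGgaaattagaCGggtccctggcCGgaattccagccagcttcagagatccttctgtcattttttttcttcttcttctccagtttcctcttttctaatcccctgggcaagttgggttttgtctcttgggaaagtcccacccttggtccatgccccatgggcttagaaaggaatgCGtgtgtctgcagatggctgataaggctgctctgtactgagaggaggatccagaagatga
The window held 31 CG dinucleotides in Hoxd13, 35 in Hoxa13, 40 in Barx1 and 9 in Nkx2-1, against 1 in Apoa4 and 5 in Krt14. Of the 27018 promoters in the table, 91.7% held at least 1 CG in the same window and 38.2% held at least 10, with a median of 6.

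In the mutant libraries the 238 loci summed to 379, 276, 294 and 336 CPM in the 4 mutant low libraries and 513 and 357 CPM in the 2 mutant high libraries, against 17.9, 29.5, 30.8 and 18.3 CPM in control low and 15.4 and 10.1 CPM in control high. A locus was counted as present in a mutant population where its mean was at least 0.2 CPM and at least 2 libraries held a fragment. By that count 150 loci were present in both populations, 28 in mutant low only and 60 in mutant high only. Fragments were found in all 6 mutant libraries for 128 loci, and 22 loci had no fragment in any of the 6 control libraries. The signal was uneven, since Hoxd13, Nkx2-1 and Hoxc13, the 3 loci with most fragments, carried 32.6% of the members' mutant fragments and 10 loci carried 49.9%. A mean of at least 1 CPM was reached by 42 loci in mutant low and by 99 in mutant high, 29 of them in both.

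**Figure D1:**
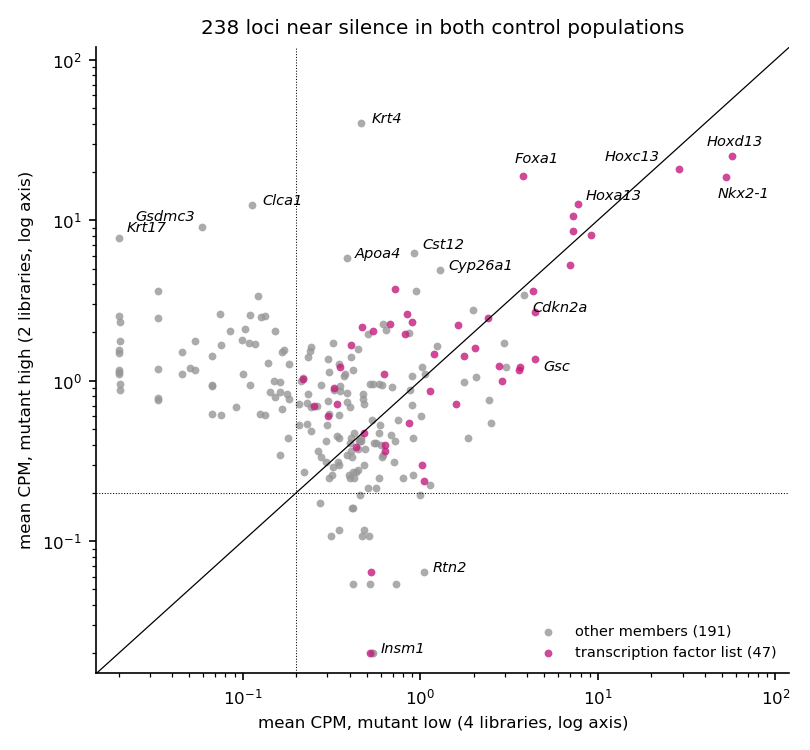
Mean CPM of each of the 238 loci in mutant low (horizontal, 4 libraries) and mutant high cells (vertical, 2 libraries), both on log axes, with means under 0.02 CPM drawn at 0.02; dotted lines mark 0.2 CPM and the solid line marks equal means. Krt4, Clca1, Gsdmc3 and Krt17 stand far above the solid line, and the 47 transcription factors of the list lie on both sides of it, Foxa1 well above and Gsc below.

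Developmental transcription factors made up 47 of the 238 loci. The list of homeobox, forkhead, Sox, T-box, Gata and related families held 307 named loci, of which 147 were under the control ceiling and 47 of these reached 20 fragments. The 47 were 19.7% of the members, and the list was 2.08% of all named loci under the ceiling. Both shares only describe, since the list was chosen with earlier results of these data known. The other loci under the ceiling also did not have to reach 20 fragments. Of the 47, 45 were present in both mutant populations, 2 in mutant low only and 0 in mutant high only. Fragments in all 6 mutant libraries were held by 39 of them, and 14 had no fragment in any control library. Together the 47 stood at 264, 190, 215 and 259 CPM in mutant low and at 220 and 139 CPM in mutant high, against 1.24 to 5.13 CPM in control low libraries and 0.66 to 0.96 CPM in those of control high. CPM is not divided by transcript length, so values are compared below for 1 gene across libraries and not between genes.

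The posterior Hox genes, which pattern the tail end of the body, the digits and the genital tract, were present in mutant cells from 4 different clusters. Hoxd13 (chr2:74506367-74509655, mm9) held 1, 0, 4 and 2 fragments in control low and 0 and 0 in control high. In mutant low it stood at 44.1, 43.9, 51.7 and 87.2 CPM and in mutant high at 23.3 and 26.6 CPM, so every mutant library lay far above every control library. The ratio of mutant low to control low fragments, scaled to depth, was 313 (95% interval 152 to 779), and mutant high was at least 89.3-fold higher than control high, with 3 fragments over the group as the floor; such intervals and floors cover counting error only. Hoxd13 was lower in mutant high than in mutant low, with no overlap of the libraries (log2 difference -1.26 ± 0.42 SE, edgeR adjusted p = 0.0337). That call was lost without mutant low replicate 3 (log2 -1.25), mutant low replicate 4 (-0.95), mutant high replicate 1 (-1.14) or mutant high replicate 2 (-1.41).

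Hoxa13 (chr6:52208852-52210874) had no fragment in any of the 6 control libraries. It stood at 12.2, 8.24, 3.56 and 6.74 CPM in mutant low, a mean of 7.69 ± 3.59 CPM (SD, n = 4), and at 19.7 and 5.53 CPM in mutant high. The mutant libraries overlapped between low and high (log2 difference 0.69 ± 0.51 SE, edgeR adjusted p = 0.338), and each population was above its control, by at least 86.6-fold in low and 47.6-fold in high cells. Hoxc13 (chr15:102751562-102759245), known for hair and nail, held 0, 1, 5 and 0 fragments in control low and none in control high, but 27, 27.7, 26.7 and 33.9 CPM in mutant low and 25.4 and 16.1 CPM in mutant high. Its low and high mutant means of 28.8 ± 3.38 CPM (SD, n = 4) and 20.7 ± 6.57 CPM (SD, n = 2) did not pass the test (log2 difference -0.54 ± 0.47 SE, edgeR adjusted p = 0.405). Hoxb13 (chr11:96055675-96057913), a gene of the tail bud and prostate, held 9, 10, 3 and 2 fragments in mutant low and 27 and 18 in mutant high, and Hoxc12 held 4, 1, 4 and 3 and 5 and 7. Neither had a fragment in any control library, and both mutant populations held them. The 5 genes summed to 85.1, 81.7, 82.7 and 128 CPM in mutant low and 71.8 and 51.4 CPM in mutant high, against 0.12 to 1.05 CPM in control low and 0 in control high. The 4 stroma markers Foxd1, Pdgfra, Col1a1 and Col3a1, none of them at 0 in any group, summed to 39.7 to 99.6 CPM in mutant low and 109 and 175 CPM in mutant high, against 19.9 to 42.5 CPM in control low and 24 and 37.1 CPM in control high, and their part in the Hox values was not tested.

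Regulators of the gut, lung and pharynx, grouped after their values had been seen, were also on in both populations. Nkx2-1 (chr12:57632924-57637895), needed for lung, thyroid and ventral forebrain, held 1, 1, 0 and 0 fragments in control low and none in control high. In mutant low it stood at 83.2, 30.9, 49.5 and 47.2 CPM and in mutant high at 26.8 and 10.4 CPM. The mutant low fragments exceeded those of control low 943 (95% interval 261 to 7796)-fold, an interval that is wide because control low held only 2 fragments. Mutant high was lower than mutant low (log2 difference -1.56 ± 0.45 SE, edgeR adjusted p = 0.0185), without overlap of the libraries, a call lost without mutant high replicate 2 (log2 -1.06, adjusted p = 0.176). Without mutant high replicate 1 the log2 difference was -2.34. Barx1 (chr13:48758405-48761876), a regulator of stomach and tooth mesenchyme, held 1 fragment over all 6 control libraries against 10.2, 8.74, 4.27 and 5.93 CPM in mutant low and 10.2 and 6.94 CPM in mutant high, ranges that overlapped (log2 difference 0.22 ± 0.40 SE, edgeR adjusted p = 0.713).

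Foxa1 (chr12:58641619-58647108), a pioneer factor of endoderm, went the other way from Nkx2-1. It held 0, 0, 0 and 5 fragments in control low and none in control high, 3.09, 2.35, 4.98 and 4.71 CPM in mutant low and 28.6 and 9.38 CPM in mutant high. Both mutant high values were above all mutant low values (log2 difference 2.20 ± 0.58 SE, edgeR adjusted p = 0.0113), and the call was lost without mutant high replicate 1 (log2 1.23, adjusted p = 0.265). Its relative Foxa2 had no fragment in controls and held 4, 0, 8 and 10 fragments in mutant low and 26 and 10 in mutant high. Tbx1 and Pax9, which pattern the pharyngeal pouches, Pax1, Gata4 and the gut gene Nkx2-3 completed the group of 9. Its sum was 102, 46.2, 65.8 and 63.1 CPM in mutant low and 77.7 and 34.1 CPM in mutant high, against 0.12 to 0.81 CPM in the 6 control libraries.

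Regulators of ectoderm, eye and nerve were spread over many families at lower fragment numbers. The locus of Sox2, the stem cell and neural progenitor factor, also holds the longer transcript Sox2ot on the same strand, over 118 kb. It held 0, 1, 0 and 5 fragments in control low and 0 and 1 in control high, stood at 9.12, 7.23, 5.38 and 7.14 CPM in mutant low and 10.8 and 10.4 CPM in mutant high and did not pass the test between them (log2 difference 0.52 ± 0.46 SE, edgeR adjusted p = 0.421). Vax2, a gene of the ventral retina, stood at 8.45, 4.37, 8.94 and 6.09 CPM and 5.26 and 5.27 CPM, with 1 fragment in all controls, and Isl2, of motor neurons, with 1, 0, 3 and 0 fragments in control low and none in control high, at 4.03, 3.7, 5.08 and 4.95 CPM and 2.36 and 2.96 CPM. Isl2 was not called between the mutant populations although its libraries did not overlap (log2 difference -0.81 ± 0.53 SE, edgeR adjusted p = 0.265).

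Gsc, the organizer gene of the early embryo, was among the factors lower in mutant high, at 3.09, 2.86, 7.62 and 4.14 CPM in mutant low and 1.07 and 1.67 CPM in mutant high (log2 difference -1.80 ± 0.60 SE, edgeR adjusted p = 0.0358). Ebf3, a neuronal differentiation factor, stood at 4.96, 4.04, 2.34 and 3.33 CPM and 1.4 and 1.03 CPM (log2 difference -1.60 ± 0.53 SE, edgeR adjusted p = 0.0332), and Gbx2, of the hindbrain border, at 3.22, 2.52, 3.76 and 4.95 CPM and 1.18 and 1.16 CPM (log2 difference -1.71 ± 0.59 SE, edgeR adjusted p = 0.0411). In each of the 3 genes no mutant high library reached the lowest mutant low library. All 3 passed the filter on low counts through their mutant low fragments, so their adjusted p-values are a description and not support. The calls of Gsc and Gbx2 were each lost without mutant low replicate 3 (log2 -1.31 and -1.63), mutant low replicate 4 (-1.83 and -1.49), mutant high replicate 1 (-1.48 and -1.69) or mutant high replicate 2 (-2.19 and -1.74). With the replicate number as a block, Gsc (adjusted p = 0.11) and Gbx2 (adjusted p = 0.0786) were not called either. Ebf3 kept its call only without mutant low replicate 3; the other 5 values ran from -1.81 to -1.45.

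In the other direction, Pitx1, which gives the hind limb its identity, held no control fragment, 1.48, 0.168, 0.508 and 0.731 CPM in mutant low and 5.91 and 1.54 CPM in mutant high (log2 difference 2.28 ± 0.69 SE, edgeR adjusted p = 0.0283). Zic5, of the neural plate and crest, held 1 and 1 fragments in control high, had none in control low, and stood at 0.939, 0.336, 0.203 and 0.406 CPM in mutant low and 2.26 and 2.06 CPM in mutant high (log2 difference 2.15 ± 0.59 SE, edgeR adjusted p = 0.0164). Both genes were higher in mutant high in every library. They passed the filter on low counts through their mutant high fragments, so their adjusted p-values are a description and not support. Pitx1 lost its call without mutant low replicate 3 (log2 2.18), mutant low replicate 4 (2.3) or mutant high replicate 1 (1.06), and stood at 2.91 without mutant high replicate 2. Zic5 lost its call without mutant high replicate 1 (2.12) or 2 (2.17). In all, 32 of the 47 factors had enough fragments to be tested between the mutant populations, 3 were higher and 5 lower in mutant high, and 24 did not pass, where 19% of all tested loci were called higher and 13.2% lower. Among the remaining factors of the list, given by name alone here, were Dbx2, Dmrt3, Dmrta2, Foxb1, Foxf2, Isl1, Lhx9, Mnx1, Nkx2-4, Pou4f1, Prdm8, Sox1, Tbx5, Tfap2c, Tfap2e and Tlx2, all present in both populations. A group of 12 neuronal identity factors summed to 14.2 to 17.4 CPM in mutant low and 10.1 and 9.38 CPM in mutant high, and 7 factors of ectoderm and eye to 16.6 to 25 CPM and 21.8 and 21.2 CPM. In the 6 control libraries the sums stayed at or under 1.4 and 1.03 CPM.

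**Figure D2:**
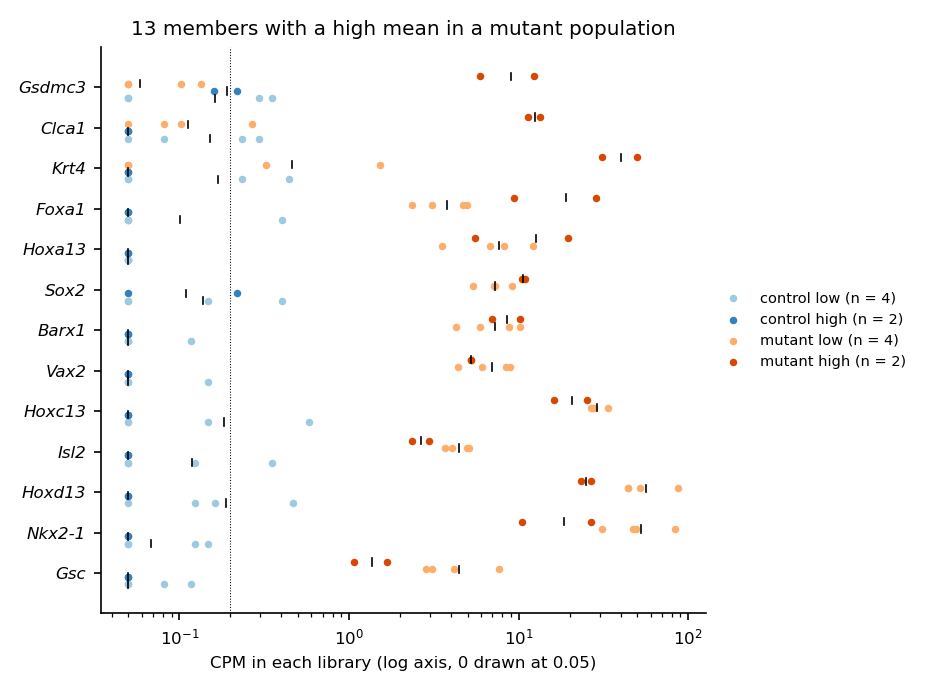
CPM in each library (log axis, 0 drawn at 0.05) of 13 members that rank among the first 10 by mean CPM in either mutant population; points are libraries coloured by group, short black bars are group means and the dotted line marks 0.2 CPM. From Foxa1 down to Gsc the orange points of both shades lie to the right of the control points, with the dark points of Foxa1 to the right of the light ones and those of Isl2, Hoxd13, Nkx2-1 and Gsc to their left, while Gsdmc3, Clca1 and Krt4 have their dark orange mutant high points alone at the right.

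Outside the list of factors, Cdkn2a (chr4:88920377-88940523), a locus that encodes inhibitors of the cell cycle, had no fragment in the 6 control libraries. It stood at 6.17, 6.22, 1.83 and 1.05 CPM in mutant low and at 4.62 and 2.19 CPM in mutant high, and the means of 3.82 ± 2.76 CPM (SD, n = 4) and 3.4 ± 1.72 CPM (SD, n = 2) overlapped (log2 difference -0.12 ± 0.67 SE, edgeR adjusted p = 0.908). Mutant low replicates 1 and 2 were above replicates 3 and 4. Cyp26a1, which breaks down retinoic acid, likewise had no control fragment, held 2.15, 1.01, 1.12 and 0.893 CPM in mutant low and 4.19 and 5.53 CPM in mutant high, and was higher in mutant high (log2 difference 1.88 ± 0.48 SE, edgeR adjusted p = 0.0128), a call lost without mutant high replicate 2 (log2 1.62). Cyp26a1 passed the filter on low counts through its mutant high fragments, so its adjusted p-value is a description and not support. Loci listed at 0 in all controls could also hold failed estimates, which the table does not mark.

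Some members lay side by side. Within 100 kb of another member were 30 loci, in 14 runs. On chromosome 6 the run of Hoxa13, the long noncoding RNA Hottip of the end of the HoxA cluster and the homeobox gene Evx1 covered 59.5 kb and held 299 fragments in mutant low and 251 in mutant high. On chromosome 15 Hoxc13 and Hoxc12 covered 17.4 kb with 1058 and 373 fragments. Dlx1, Dlx1as and Dlx2, of forebrain interneurons, covered 17.3 kb of chromosome 2 with 132 and 22 fragments, and Foxa1 with Ttc6 covered 81.5 kb of chromosome 12 with 153 and 355. Cdkn2a and Gm12610, a transcript on the strand opposite Cdkn2b, shared a run of 265 kb with 151 and 70 fragments. The other 9 runs were Gbx2 with D130058E05Rik, Il20ra with Slc35d3, Kcnip1 with Kcnmb1, Sp6 with Gm11532, Krt14 with Krt17, a pair of loci both named Ahnak2, Scrt2 with Tcf15, Vax2os with Vax2, and Prss50 with Lrrc2. Overlap with a locus on the other strand was found for 40 members, among them Vax2 with Vax2os, Gbx2 with D130058E05Rik and Dlx1 with Dlx1as. The library kit does not mark strand by default, so the fragments of such partners cannot be told apart.

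Only 28 loci met the rule in mutant low and not in mutant high, and their fragments were few. Together they stood at 20.1, 9.92, 13.8 and 14 CPM in mutant low, 7.09 and 2.96 CPM in mutant high, 2.1 to 4.54 CPM in control low, and 0.88 and 1.76 CPM in the high controls. The homeobox genes Gsx2, of the ventral forebrain, and Msx3, of the dorsal spinal cord, belonged here. Msx3 held 3, 4, 6 and 5 fragments in mutant low and 0 and 0 in mutant high, and Gsx2 held 5, 1, 7 and 7 and 0 and 1. Insm1, a factor of neuroendocrine cells and newborn neurons, held 3, 1, 6 and 12 fragments in mutant low and none in the other 8 libraries. In mutant high a count of 0 over both libraries allows a level of up to 0.176 CPM. Only 1 of the 28 loci, Gm7240, had enough fragments to be tested between the mutant populations, and it was not called, so that the difference is not shown for these genes. Rtn2 had 24 fragments in mutant low replicate 1 and 1, 4 and 5 in the other three.

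The 60 loci present in mutant high only held 0 of the 47 listed factors. They summed to 128 and 99.2 CPM in mutant high, against 3.53 to 7.52 CPM in mutant low, 3.4 to 8.11 CPM in control low and 4.32 and 4.62 CPM in control high. The groups of epithelial and immune genes that follow, like the groups of factors above, were picked from the members after their values had been seen. Their counts and sums therefore only describe the genes picked. A group of 9 members known from squamous epithelium, 8 of them in mutant high only and Krt4 in both, summed to 71.2 and 50.3 CPM in mutant high and 0.27 to 1.73 CPM in mutant low. The same genes summed to 0.4 to 1.33 CPM in the low and to 0.32 and 0.66 CPM in the high controls. The tested loci named in these groups and beside them passed the filter on low counts through their mutant high fragments. Their adjusted p-values are therefore given as a description and not as support.

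Krt4 (chr15:101748966-101755166), a keratin of the lining of the mouth and oesophagus, held 0, 3, 2 and 0 fragments in control low and none in control high. It held 0, 0, 15 and 4 fragments in mutant low and 465 and 240 in mutant high, which is 50 and 30.9 CPM. Both mutant high libraries stood far above the other 10, and the difference from mutant low was called, under that limit of the filter (log2 difference 6.13 ± 0.89 SE, edgeR adjusted p = 0.000355). Mutant low held it in replicates 3 and 4 alone; without replicate 3 the log2 fold change was 7.91. Krt17 and Krt14, keratins of basal and injured epidermis and neighbours on chromosome 11, had no fragment in any mutant low library. Krt17 held 42 and 85 fragments in mutant high, at least 88.1-fold more than mutant low over the group, and 1 and 1 in control high. Krt14 held 12 and 8, at least 13.9-fold more than mutant low, and had too few fragments for the test. S100a14, an epithelial calcium-binding protein, held 29 and 15 fragments in mutant high and none in mutant low or control high. The edgeR p-values of Krt17 and S100a14 are not given, since neither had a fragment in mutant low.

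A group of 10 genes of the gut lining and of mucus, picked in the same way, was made of 9 loci in mutant high only and Pnliprp2, present in both. Their sum was 48.4 and 34.6 CPM in mutant high, 0.5 to 2.6 CPM in mutant low, 0.32 to 1.33 CPM in control low and 0.96 and 0.44 CPM in control high. Clca1 (chr3:144667501-144695740), secreted by goblet cells, held 2, 0, 1 and 1 fragments in mutant low, 125 and 89 in mutant high, 0, 2, 2 and 1 in control low and none in control high (log2 difference 6.54 ± 0.60 SE, edgeR adjusted p = 2.48e-06 for mutant high against low). Only the mutant high libraries stood out. The Gsdmc3 locus, a 136 kb sum over the near-identical copies Gsdmc, Gsdmc2, Gsdmc3 and Gsdmc4, among which fragments cannot be assigned with certainty, held 1, 0, 1 and 0 and 114 and 46 fragments in mutant low and high (log2 difference 6.90 ± 0.80 SE, edgeR adjusted p = 1.25e-05). Reg3g, an antibacterial lectin of the intestine, held 1 fragment in mutant low and 34 and 10 in mutant high (log2 difference 5.76 ± 0.97 SE, edgeR adjusted p = 0.000369), and the noncoding transcript 9530014B07Rik held 1 and 49 and 15 (log2 difference 6.30 ± 0.91 SE, edgeR adjusted p = 0.000138). The scaled ratio of 9530014B07Rik was 133 (95% interval 23.1 to 5342) and that of Reg3g 91.6 (95% interval 15.6 to 3698), wide because of the single mutant low fragment. Without mutant low replicate 1, which held that fragment in both, the log2 differences were 7.27 for Reg3g and 7.8 for 9530014B07Rik, and without mutant high replicate 1 the latter was 5.43.

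Apoa4, an apolipoprotein made by the small intestine, held 0, 0, 0 and 19 fragments in mutant low and 28 and 67 in mutant high, so all of its mutant low signal came from replicate 4. The difference was called (log2 difference 3.52 ± 0.99 SE, edgeR adjusted p = 0.016), and the call was lost without mutant high replicate 2 (log2 2.53, adjusted p = 0.187). The log2 difference was 8.45 without mutant low replicate 4 and 4.11 without mutant high replicate 1. Muc13, a membrane mucin, held 4, 0, 0 and 0 and 28 and 16 fragments (log2 difference 4.23 ± 0.92 SE, edgeR adjusted p = 0.00318), and without mutant low replicate 1, the only mutant low library that held it, the log2 difference was 7.3. The 5 liver markers Alb, Afp, Ttr, Apoa1 and Fgb, none of them a member, summed to 1311 and 1185 CPM in mutant high, 79.2 and 616 CPM in control high, 5.24 to 21.6 CPM in control low, and only 1.63 to 7.38 CPM in mutant low. None of the 5 was at 0 in any group, and their part in the epithelial signal was not tested. The 4 ureteric bud markers moved the other way, from 2247 and 3001 CPM in control high to 412 and 874 CPM in mutant high.

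Genes of immune cells and cytokines made up 16 members, 12 of them in mutant high only and 4, Cd6, Trim30a, Xaf1 and Irf4, in both populations. They summed to 14.8 and 17.6 CPM in mutant high, 1.34 to 3.09 CPM in mutant low, 0.65 to 2.33 CPM in control low and 1.28 and 1.1 CPM in control high. The chemokine Cxcl11 held 23 and 5 fragments in mutant high and none in the other 10 libraries, and Ccl5, another chemokine, held 14 and 6 and none in mutant low. Tnf, the inflammatory cytokine, held 1, 0, 0 and 1 fragments in mutant low and 22 and 9 in mutant high. These 3 had too few fragments for the test, and Il20ra, a cytokine receptor subunit, was the only member of the group tested and was higher in mutant high (log2 difference 3.77 ± 0.78 SE, edgeR adjusted p = 0.00325). The 5 immune markers Ptprc, Cd3e, Csf1r, Cd68 and Lyz2 summed to 68.3 and 123 CPM in mutant high, 45.6 and 50.8 CPM in control high and 5.85 to 9.76 CPM in the low libraries. Cd3e was at 0 in every group and Lyz2 in control low, and the part of immune cells in these values was not tested.

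**Figure D3:**
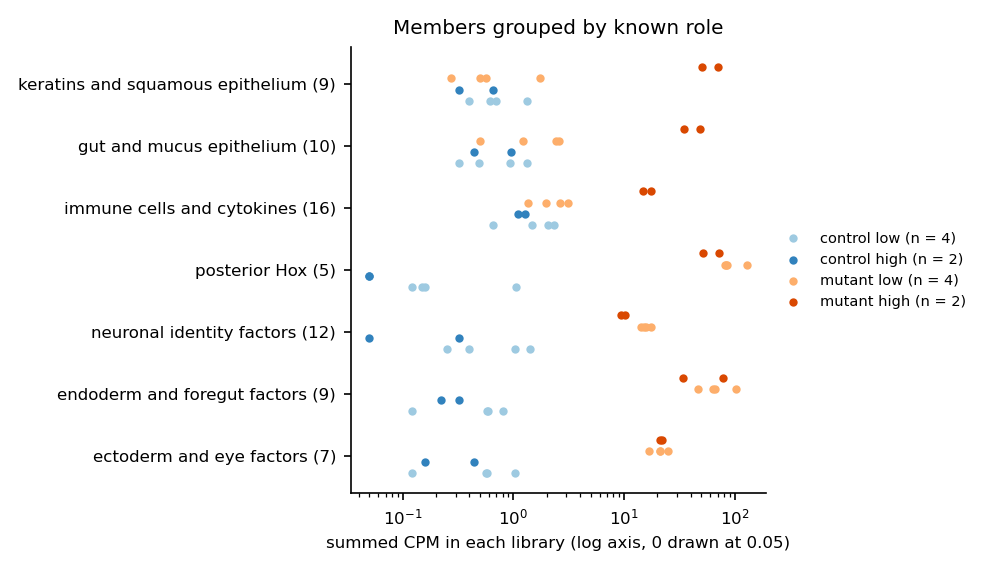
Summed CPM of the members of 7 role groups in each library (log axis, 0 drawn at 0.05), with the number of members in brackets and points coloured by group. In the upper 3 groups only the mutant high libraries lie apart from the controls, and in the lower 4 groups of transcription factors all 6 mutant libraries do. All 7 groups were picked from the members after their values had been seen, so the pattern only describes the genes picked.

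Between the mutant populations, a contrast the choice of members did not use, 70 of the 238 loci had enough fragments for the test and 168 did not. Of the 70, 27 were higher and 8 were lower in mutant high (edgeR quasi-likelihood test, Benjamini-Hochberg over 13749 loci). Over all loci tested, 19% were called higher and 13.2% lower in that contrast. Loci of low total pass the filter through the group in which they are high, so the count describes the tested loci and not all 238, and nothing is read from it. The median log2 fold change was 0.61 over the 70 and -0.03 over all loci tested. Whether a call held when 1 mutant library was left out, given next, is also a description and not support. The higher calls that held in every fit were near 0 in mutant low and passed the filter through mutant high. Of the 27 higher calls, 13 held in all 6 fits that left out 1 mutant library each, 12 were lost in at least 1, and 2 (Reg3g and Cyp2c55) were not lost but could not be tested in every fit. All 8 lower calls, Hoxd13, Nkx2-1, Gsc, Gbx2, D130058E05Rik, Ebf3, Slitrk5 and Rbmxl2, were lost in at least 1 fit.

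Of the lower calls not described above, D130058E05Rik, a transcript on the strand opposite Gbx2, stood at 2.01, 2.69, 1.93 and 3.41 CPM in mutant low and 0.322 and 0.771 CPM in mutant high (log2 difference -2.26 ± 0.69 SE, edgeR adjusted p = 0.0235). Slitrk5, a membrane protein of synapses, stood at 2.82, 3.03, 1.52 and 2.44 CPM and 0.752 and 0.771 CPM (log2 difference -1.69 ± 0.53 SE, edgeR adjusted p = 0.0253), and Rbmxl2, an RNA-binding protein of germ cells, at 1.75, 1.34, 2.03 and 2.27 CPM and 0.107 and 0.771 CPM (log2 difference -2.17 ± 0.72 SE, edgeR adjusted p = 0.0338). Mutant high lay below mutant low in every library of these 3 loci. They passed the filter on low counts through their mutant low fragments, so their adjusted p-values are a description and not support. The call of D130058E05Rik was lost without mutant low replicate 4 (log2 -2.03), mutant high replicate 1 (-1.72) or mutant high replicate 2 (-3.02), and that of Slitrk5 without the same libraries (-1.66, -1.65 and -1.76). Rbmxl2 lost it without mutant low replicate 3 (-2.07), mutant low replicate 4 (-2.03) or mutant high replicate 1 (-1.3) and stood at -4.05 without mutant high replicate 2. It was not called with the replicate number as a block (adjusted p = 0.101).

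CG content, which the rule did not use, was read at the members' transcript starts. The window was the first 250 bases of each gene's longest GENCODE transcript (GRCm38), available for 235 of the 238. The median number of CG dinucleotides there was 12 over the members, 3 over the named loci under the control ceiling that were no member and 11 over all named loci on chromosomes 1 to 19. Loci present in both mutant populations had a median of 16, those in mutant low only 13 and those in mutant high only 6. At least 10 CG were held by 70.9%, 59.3% and 31.7% of these 3 classes, by 87.2% of the 47 transcription factors and by 15.9% of the silent loci that were no member. The share was 59.6% over all members, near the 53.7% over all named loci on chromosomes 1 to 19. Members outside the transcription factor list stood at 52.7%, with a median of 10 CG. The silent loci that were no member did not have to reach 20 fragments, which limits that comparison. The class present in both populations held 45 of the listed factors, and its CG was not counted without them. These are descriptions, since genes are not replicates and the longest transcript need not be the one expressed.

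**Figure D4:**
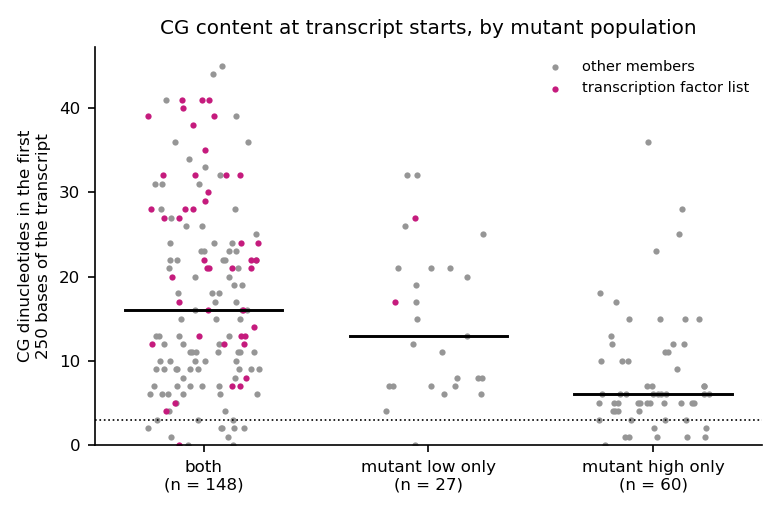
CG dinucleotides in the first 250 bases of each member's longest transcript (vertical axis) by the mutant population in which it was present; points are loci, spread sideways at random, black bars are medians and the dotted line is the median of silent loci that were no member. The medians are 16, 13 and 6, and the listed transcription factors lie mostly in the upper part of the first class.

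The members also differed in their surroundings. The median distance from a member to the nearest other locus with at least 1 CPM in control low was 32.9 kb, against 62.9 kb for silent loci that were no member and 17 kb for all loci. Their median span was 13.6 kb, against 1.46 kb and 11.9 kb. Of 222 tested neighbours that were no member, 57 (25.7%) were called higher in mutant high against control high, beside 19.6% of the neighbours of the other silent loci and 15.7% of those of all loci. In mutant low against control low the shares were 7.2%, 6.3% and 4.3%. Over all 13749 loci tested, 16.3% were called higher in the former contrast and 4.82% in the latter. The minimum of 20 fragments bears on span, and these values are given without a test.

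Other lists, also chosen with earlier results of these data known, were counted as a description. Of 28 germline genes found by name, 16 were under the ceiling and 0 were members. Signalling genes, 0.69% of the named loci under the ceiling, gave 7 members (2.9% of the 238), Ccl5, Cxcl11, Cxcl15, Epha8, Gdf5, Gdf6 and Wnt3, and neuronal channels and receptors, 0.96% of those loci, gave 8 (3.4%), among them Chrm3, Gabrg1, Kcnh4, Kcnip1, Kcnk10, Kcnmb1 and Scn1a. Among these none had enough fragments for the test. The 12 neuron markers, none of them a member, summed to 9.45 and 10.7 CPM in control high against 18.8 and 24.8 CPM in mutant high, and to 23.2 to 26.7 CPM in control low against 24.8 to 34.3 CPM in mutant low, and Rbfox3 was at 0 in both high groups.

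The edge of the rule was crowded. Just inside the control ceiling lay Scn1a (0.199 CPM in control low, 0.389 in mutant low and 0.74 in mutant high), Lrrc36 and Tmprss3, each with 0.1997 CPM in control low, and just outside lay Upk2 (0.201), Nptx2 (0.203) and Rasgef1a (0.206). Nptx2 held 1.33 CPM in mutant low, more than many members. At the other edge 13 members had exactly 20 fragments and 17 loci missed the minimum with 19. Of the 238, 103 had fewer than 30 fragments over all 12 libraries.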

How the data were processed

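The deposited table gives expected counts of fragments per transcript, which its title calls raw fragments of CuffDiff2. Per the submitters' processing notes, the tools were Bowtie2, HTSeq and DESeq2 and the build was mm9, with no role or version. Any use of strand is not given in the sources used here. Transcripts overlapping on a strand were summed, and at least 99.4% of a library's 26699 sums were whole within 0.01; sums were rounded. Of 55418 rows, 303 had no position and no fragment. Deposited starts count from 0 by their spans and are printed from 1. Loci were named by matching chromosome, strand and span, or 1 shared end, to GENCODE M21 and RefSeq models of GRCm38, which named 237 of the 238 members (97 by the same span, 135 by 1 shared end, 5 by overlap); such names are inferred.

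Counts were tested with glmQLFit and glmQLFTest in edgeR 4.0.16 (R 4.3.3, TMM, filterByExpr, robust, all 12 libraries in 1 fit of 4 groups), two-sided at 0.05 after Benjamini-Hochberg adjustment over 13749 loci, and the fit was tested on simulated counts. Alternatives used DESeq2 1.42.0, limma-voom 3.58.1, other filters, ceilings and scalings, a replicate block and left-out libraries. Members named with values were the 10 with the highest mean CPM in each mutant population, the 6 smallest adjusted p in each direction, runs within 100 kb and members of the lists. The members and lists were chosen with earlier results of these data known, and the role groups after the values were seen, so that other genes described were chosen likewise. Values of a few genes are not reported here.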

Additional observations from a re-analysis of the deposited data

Results flagged for a closer look

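In groups of 4, the highest or lowest library is expected to stand apart by chance about 1 time in 20, and 42 members with a mean of at least 1 CPM were examined in mutant low. In 5 of them a single library stood apart from the other three. Hoxc13 had its highest value, 33.9 CPM, in replicate 4, against 26.7 to 27.7 CPM in the others. Foxl2, a factor of ovary and eyelid, reached 5.5 CPM in replicate 1. Gpr12 was lowest in replicate 3, at 0.305 CPM. Gm12610, opposite Cdkn2b, was highest in replicate 3 at 1.93 CPM. Rtn2 was highest in replicate 1 at 3.22 CPM, and this library held most of its fragments.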

How the results depend on the processing

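The number of members follows the rule: it was 238 as reported, 87 with a ceiling of 0.1 CPM, 938 with 0.5 CPM, 687 with a minimum of 10 fragments, 63 with 50 fragments and 991 with each transcript taken alone. It was 205 with TMM library sizes and 245 with chromosome X added, and leaving out 1 library at a time gave 159 to 265. With presence set at a mean of 0.5 CPM, 60 loci were in both mutant populations, 31 in mutant low only, 102 in mutant high only and 45 in neither. Thinning the mutant libraries to 1 depth left 141, 35, 60 and 2, and using only mutant low replicates 1 and 2 left 132, 24, 78 and 4. The 35 calls between mutant high and mutant low became 65 with no filter on low counts (238 tested), 10 with at least 10 fragments in 4 libraries (32 tested) and 17 with only mutant low replicates 1 and 2. Leaving out 1 mutant library at a time gave 23 to 39; where that left 1 mutant high library, it was assumed to vary like the other groups. The lowest count came without mutant low replicate 4, which kept 22 higher and 1 lower call. DESeq2 called 28, limma-voom 43 and RLE scaling 35. Mutant high and low replicates 1 and 2 share numbers in the titles and in the sample descriptions, but the labels do not say that a number marks an animal. In the controls, high and low libraries share description numbers under different title numbers. The main fit used no pairing. The same-numbered mutant libraries deviated together with r of 0.22 and 0.14, over only 2 pairs. With that replicate block, in a fit of the 6 mutant libraries, 34 members were called, 30 of them also called without it. No direction reversed among the 12 members named by smallest adjusted p in 11 to 14 settings each. That is a description and not support, since the 12 were picked on the same libraries that the settings refit. Depth limits what can be called absent: a count of 0 over a group allows up to 0.0837 CPM in control low and 0.278 CPM in control high.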
